A study of Arabidopsis thaliana with 4 samples.

Results

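The class III peroxidase genes of Arabidopsis thaliana were followed in leaf explants cultured on callus inducing medium. From 60 loci of this family, those that occurred in any of the authors' 4 gene tables were taken, which gave 38 of the 60 loci and 38 of the 2773 loci in the tables. The tables list genes whose level at day 4 was more than 8-fold that at day 0. Of the 38 loci, 27 were in both the wild-type and the lbd16-2 list, 3 belonged to the wild-type list alone and 8 to the lbd16-2 list alone. The other 22 loci were in no table, so their levels were not analysed here. They were PRX2, PRX4, PRX6, PRX9, PRX10, PRX18, PRX24, PRX27, PRX29, PRX31, PRX34, PRX36, PRX41, PRX44, PRX47, PRX50, PRX51, PRX56, PRX60, PRX63, PRX66 and PRX68. Genes are given by the systematic family number, with the locus identifier of the tables beside it where a gene is described.

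The study used wild type Col-0 and the mutant lbd16-2, a mutant of LBD16, which encodes an auxin-induced transcription factor of lateral root initiation and callus formation. Whole leaf explants from the first leaf pair of 12-day-old plants were sampled at day 0 and after 4 days of culture in darkness on callus inducing medium, which holds auxin and cytokinin. Each of the 4 groups (wild type day 0, wild type day 4, lbd16-2 day 0, lbd16-2 day 4) was 1 library of total RNA, so no test between conditions was possible and every difference is one between libraries. The mutant was represented by 1 line, and the labels give no other allele or agent. In these bulk samples, a change in the number of cells of a type and a change in RNA per cell cannot be told apart.

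Class III peroxidases are secreted haem enzymes of plants. With hydrogen peroxide they oxidise phenolic compounds, which polymerises lignin and suberin and cross-links wall proteins such as extensins, so that the wall stiffens. In another reaction cycle they form reactive oxygen species, which can loosen the wall. Plant genomes carry many copies, often side by side, and many of the Arabidopsis copies are known mainly from roots.

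Levels are given as normalised reads, the reads of a gene divided by the size factor of its library. The size factors, which measure relative depth, ran from 1.08 to 1.68, and the total depth is unknown because the tables hold listed genes only. Intervals of ratios and folds in parentheses are exact binomial 95% intervals, which cover counting error only. Those of differences of log2 folds are normal approximations of counting error. The interval of a median is taken from the ranked values of the genes, so it rests on the spread among genes. Over the 376 shared genes with enough reads at day 0, the lbd16-2 library lay 0.47 log2 above wild type, and over 1536 shared genes at day 4 it lay -0.01 from it, so day 0 ratios carry an offset that day 4 ratios do not. The LBD16 gene was at 20.9 normalised reads in the wild-type leaf and 981 after culture, and at 34.3 and 518 in lbd16-2, which does not check the genotype label, since reads over a gene do not show an intact transcript. None of the 10 leaf photosynthesis genes was in a table of increased genes, so the labelled tissue could not be checked by its levels.

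At day 4, 8 peroxidase genes stood at 1000 or more normalised reads in both genotypes, and 5 of these 8 had been under 8 normalised reads in both leaf libraries. The wild-type list held 30 of the 60 loci, against 8.91% of the 24442 genes the authors tested. The lbd16-2 list held 35 of the 60, against 9.18% of 24518 genes. Over all 73 loci of the family, 34 were in the wild-type list and 40 in the lbd16-2 list. These counts are a description for which no test was made, and the 60 loci were chosen with earlier results known. The median log2 fold of the members was 6.29 in wild type and 6.06 in lbd16-2, beside 4.56 and 4.46 over all genes of the 2 lists. The members' median day 4 level in normalised reads was 310.3 for wild type and 230.07 for lbd16-2, beside medians of 168 and 140.3 over all genes of each list.

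The starting level of most members was at the edge of detection. No more than 3 reads were counted at day 0 for 21 of the 30 members in the wild-type list (52.0% of all genes in that list) and for 25 of the 35 in the lbd16-2 list (56.5% of all genes in that list). With 0 reads at day 0, which was the case for 10 members in wild type and 12 in lbd16-2, only a lower bound can be given, computed as if that library held 3 reads of the gene. That bound was under 8-fold for 3 members in wild type and 4 in lbd16-2, so the depth does not show an 8-fold difference for those. By the exact intervals, the lower limit was under 8-fold for further listed members. In wild type these were PRX46 (7.20), PRX59 (6.38), PRX64 (6.65) and PRX67 (7.35). In lbd16-2 they were PRX35 (5.26) and PRX39 (6.87). Per the authors' deposited table, the member nearest to the list limit, a log2 fold of 3, was PRX1 in wild type at 3.01, which rests on 10 reads at day 4. In lbd16-2 the nearest values were 3.02 for PRX64 inside the list and 2.93 for PRX46 outside it.

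An FDR under 0.05 was given in the authors' deposited table to 10 of the 30 members in the wild-type list, beside 11.5% of that list, and to 10 of the 35 in the lbd16-2 list, beside 8.97%. Of these, 8 were the same genes in both genotypes: PRX22, PRX23, PRX37, PRX38, PRX49, PRX52, PRX55 and PRX69. The labels do not say how single libraries yielded p-values.

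**Figure D1:**
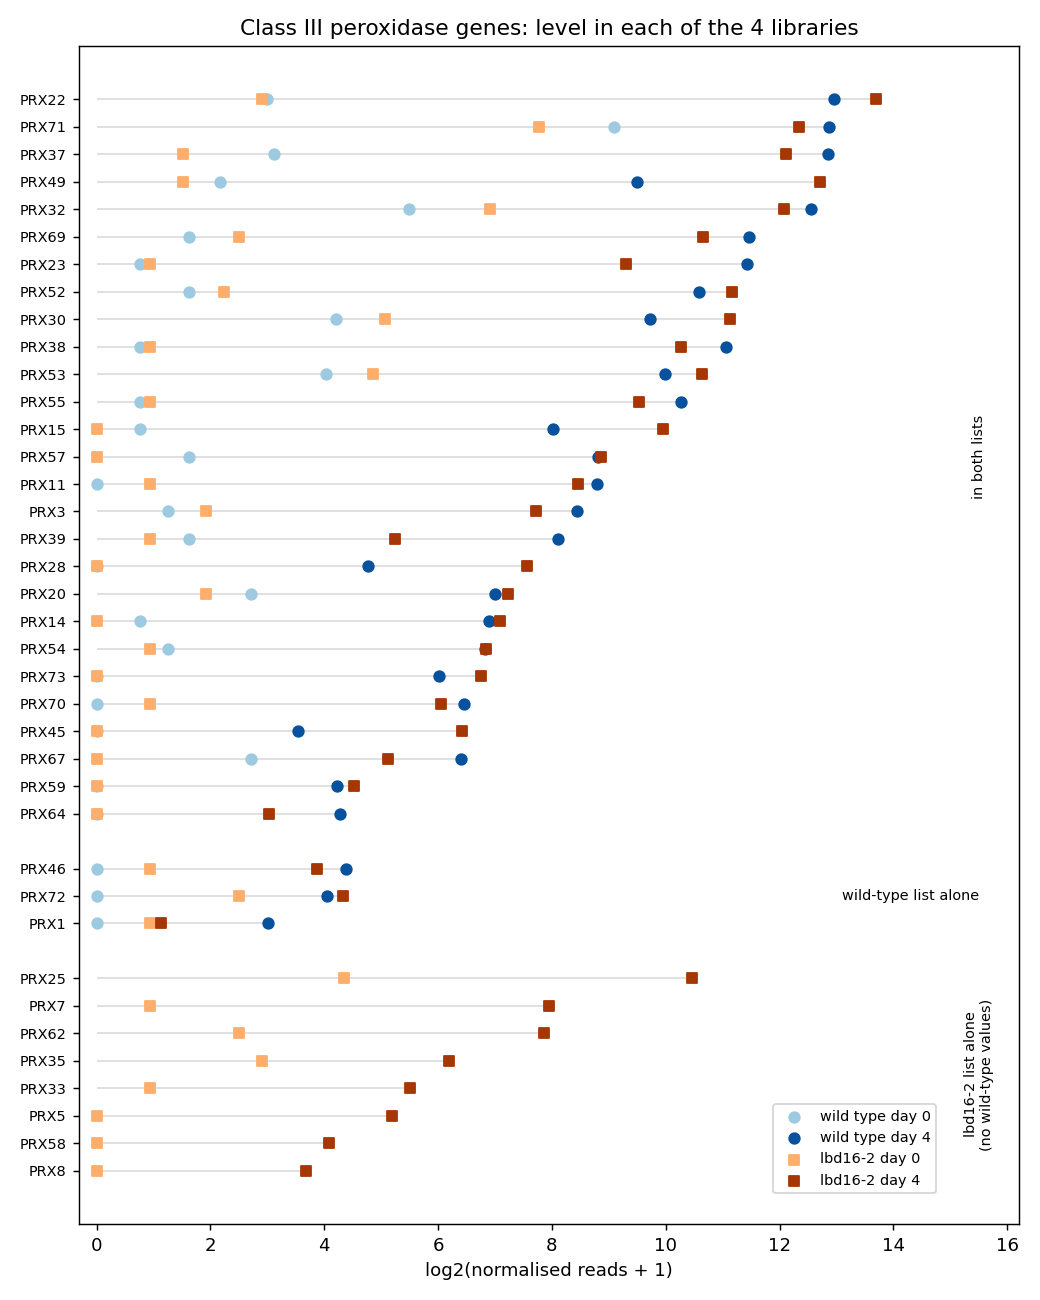
Level of each of the 38 listed peroxidase genes in the 4 libraries, as log2(normalised reads + 1) on the horizontal axis, with circles for wild type, squares for lbd16-2, pale for day 0 and dark for day 4; points at the same value overlap. PRX71 and PRX32 stand to the right of the other genes at day 0, and 8 genes of the lbd16-2 list alone have no wild-type values.

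Taken as a sum over the 30 members with values in all 4 libraries, peroxidase reads were 667 normalised reads in wild type at day 0 and 44310 at day 4, and 434 and 47148 in lbd16-2. These made up 1.01%, 2.21%, 0.425% and 2.39% of the normalised reads of all 2175 genes with values in all 4 libraries. The sum increased 66.4-fold (62.3 to 70.9) in wild type and 109-fold (99.2 to 119) in lbd16-2. A large rise was built into this sum, because all 30 genes had been selected for their increase in wild type. Most of the 30 had passed the same limit in the mutant. Loci in no table are left out, so the folds do not describe the whole family. PRX71 alone held 81.9% of the members' reads in the wild-type leaf and 50.2% in the lbd16-2 leaf. Without PRX71 the sum increased 305-fold (263 to 356) in wild type and 194-fold (171 to 222) in lbd16-2, so the order of the genotypes in this sum turned with 1 gene.

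Over the same 30 members, the summed level at day 4 differed little between the genotypes. The ratio of lbd16-2 to wild type was 1.064 (1.053 to 1.075). Its direction rested on single genes: the ratio was 0.934 (0.923 to 0.945) without PRX22 and 0.927 (0.917 to 0.938) without PRX49. The 8 members listed for the mutant only, with 2058 normalised reads after its culture, are not in this ratio. PRX21, a family gene outside the 60 loci, is also absent, at 4998 (wild type) and 16215 (lbd16-2) normalised reads. PRX16, PRX26 and PRX48, likewise outside, were lower in the mutant library. A ratio with these loci added was not computed. Which genes made up the sum differed more. In wild type PRX22 gave 17.9% of the members' reads, PRX71 16.9%, PRX37 16.7% and PRX32 13.5%. In lbd16-2 PRX22 gave 27.97%, PRX49 14.3%, PRX71 11.01%, PRX37 9.41% and PRX32 9.12%. The 5 highest genes held 71.4% in wild type and 71.8% in lbd16-2.

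Compared per kilobase of transcript, the order of the genes at day 4 was PRX71 (5572 normalised reads per kb), PRX37 (5294), PRX22 (4751) and PRX32 (3874) in wild type. In lbd16-2 it was PRX22 (7892 normalised reads per kb), PRX49 (4892), PRX71 (3867) and PRX37 (3170). PRX49 stood at place 12 in wild type, with 526 normalised reads per kb. There was no replicate from which to say whether neighbours in this order differ.

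Across the 30 members the genotypes differed in both directions at day 4, with 15 genes higher and 15 lower in lbd16-2. The median log2 difference, lbd16-2 minus wild type, was -0.16 (-0.73 to 0.30), beside -0.17 over all 2175 genes. A ratio of 2 or more was found for 5 of the 30 members (PRX49, PRX45, PRX28, PRX15 and PRX30), beside 11.3% of all genes. A ratio of 0.5 or less was found for 5 of the 30 (PRX39, PRX1, PRX23, PRX64 and PRX67), beside 24.0% of all genes. At 4-fold, 3 members were higher (3.40% of all genes) and 3 were lower (8.09% of all genes). The 30 members and the 2175 genes all come from the wild-type list, because genes of the lbd16-2 list alone have no wild-type values here. That selection favours genes lower in lbd16-2, among members and all genes alike.

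Low levels were then set aside. Among the 22 members with at least 100 normalised reads at day 4 in either genotype, 4 were at least 2-fold higher (11.5% of all genes at that level) and 2 were at least 2-fold lower (20.2%). Their median log2 difference was 0.03. For 23 of the 30 members the day 4 ratio had a counting interval without 1, 9 higher and 14 lower in lbd16-2, beside 74.5% of all genes, so this share was near the background.

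**Figure D2:**
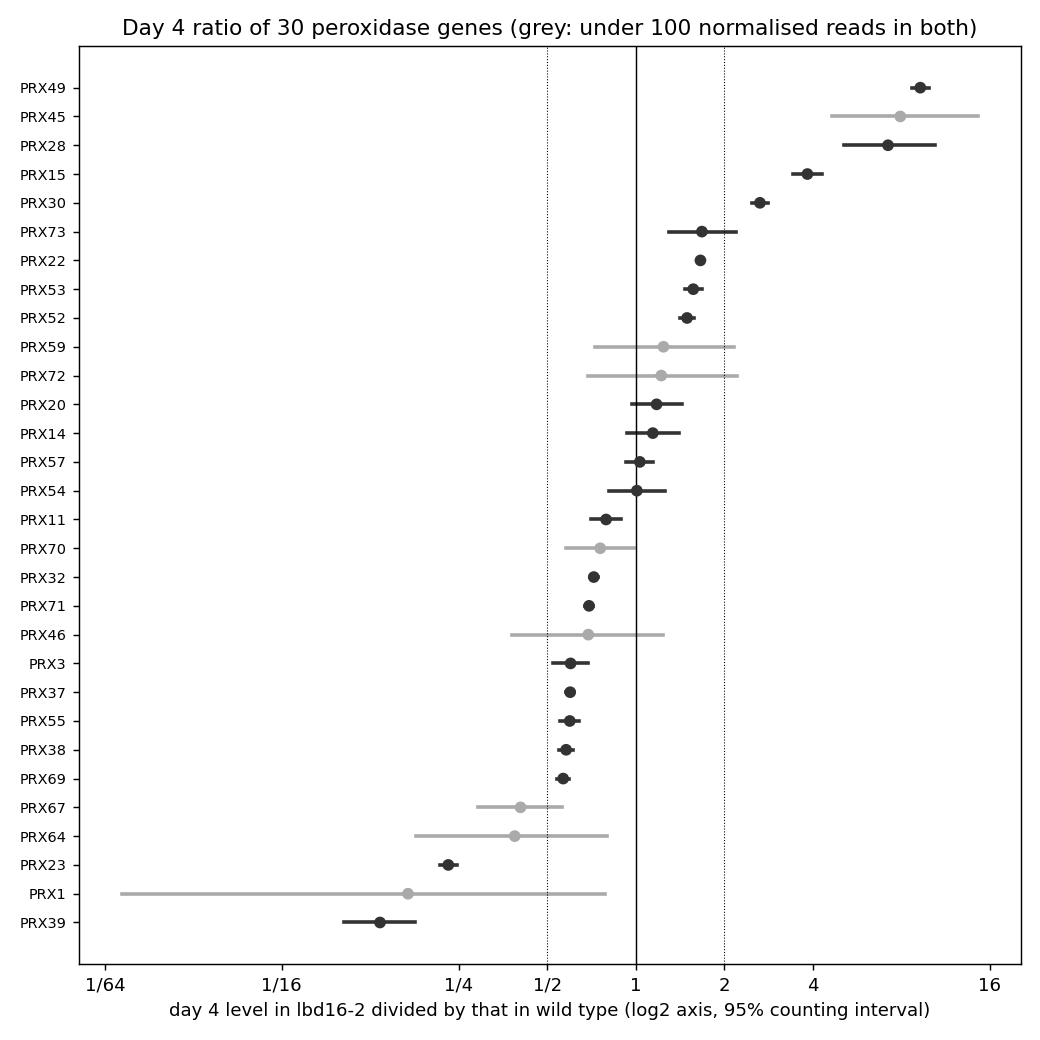
Day 4 level in lbd16-2 divided by that in wild type for the 30 peroxidase genes with values in all 4 libraries, on a log2 axis; points are ratios of normalised reads, bars are 95% counting intervals, dotted lines mark 2-fold, and grey marks genes under 100 normalised reads in both genotypes. PRX49 stands at 9.30 at the top and PRX39 at 0.135 at the bottom, and the widest bars belong to genes with few reads.

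The gene that differed most upwards was PRX49 (AT4G36430). It stood at 3.49 normalised reads in wild type at day 0 and 723 at day 4, and at 1.86 and 6726 in lbd16-2. The leaf levels of both genotypes rested on 5 and 2 reads, while at day 4 the lbd16-2 library was 9.30 times the wild-type one (8.72 to 9.93). The difference of the log2 folds of PRX49, wild type minus lbd16-2, was -3.87 (-6.10 to -1.78).

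PRX15 (AT2G18150) and PRX14 (AT2G18140), neighbours on chromosome 2, are the genes closest to PRX49 in coding sequence, with 80.1% and 77.4% identical nucleotides. PRX15 was at 0.698 and 258 normalised reads in wild type at day 0 and day 4, and at 0 and 989 in lbd16-2, a day 4 ratio of 3.84 (3.43 to 4.31). PRX14 was at 0.698 and 117 in wild type and at 0 and 134 in lbd16-2, a day 4 ratio of 1.14 (0.932 to 1.41). So 2 of these 3 related genes were well above wild type in the mutant library and the third was not beyond counting error. PRX14 and PRX15 are 91.7% identical to each other in coding sequence, so reads that match both could be given to either.

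PRX28 (AT3G03670) and PRX45 (AT4G30170) had 0 reads in both leaf libraries. PRX28 reached 26.2 normalised reads in the wild-type explants at day 4 and 189 in those of lbd16-2, a ratio of 7.22 (5.13 to 10.4). PRX45 reached 10.6 and 84.4, a ratio of 7.95 (4.66 to 14.6), at a level where the wild-type value is 15 reads. PRX30 (AT3G21770) was detected in the leaf, at 17.4 normalised reads for wild type and 32.5 for lbd16-2, and stood at 841 and 2228 at day 4, a ratio of 2.65 (2.48 to 2.83). Its closest member by coding sequence, PRX3, went the other way, as described with the Casparian strip genes.

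In the other direction, PRX39 (AT4G11290) had the smallest ratio. In wild type it stood at 2.09 normalised reads in the leaf and 273 at day 4, and at 0.928 and 36.9 in lbd16-2, a day 4 ratio of 0.135 (0.101 to 0.177). PRX23 (AT2G38390) was at 0.698 and 2745 normalised reads in wild type and at 0.928 and 633 in lbd16-2, a ratio of 0.230 (0.215 to 0.247). PRX39 and PRX23 were the 2 members of at least 100 normalised reads that were at least 2-fold lower in the mutant library. The leaf value of each rested on 3 reads or fewer in both genotypes.

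Several abundant members were lower in lbd16-2 by less than 2-fold. PRX37 (AT4G08770), whose overexpression is known to stunt growth, was at 7.67 and 7406 normalised reads in wild type and at 1.86 and 4434 in lbd16-2, a day 4 ratio of 0.599 (0.581 to 0.617). PRX55 (AT5G14130) was at 0.698 and 1231 in wild type and at 0.928 and 735 in lbd16-2, a day 4 ratio of 0.597 (0.554 to 0.642). PRX11 (AT1G68850) was at 0 and 442 in wild type and at 0.928 and 351 in lbd16-2, a ratio of 0.793 (0.708 to 0.889). All 3 were under 8 normalised reads in both leaf libraries.

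PRX32 (AT3G32980) was one of the few members detected clearly in the leaf, at 44.0 normalised reads for wild type and 119 for lbd16-2, a day 0 ratio of 2.70 (1.98 to 3.71). At day 4 it stood at 5970 and 4300, a ratio of 0.720 (0.698 to 0.743). PRX32 was therefore higher in the mutant leaf library, beyond the day 0 offset, and lower in the mutant day 4 library. The difference of its log2 folds, wild type minus lbd16-2, was 1.89 (1.47 to 2.34). Without centring on the shared genes, the interval of this difference excluded 0 for PRX32, PRX49 and PRX71 alone, and for the other 27 members it held 0. These intervals carry the day 0 offset, and intervals of centred differences were not computed. The members' median difference of log2 folds was -0.14, beside 0.57 over all genes with values in all 4 libraries. Members and genes alike entered through the wild-type list, which favours a larger fold in wild type. Over shared genes only, the median was -0.33 for 27 members and 0.22 for all 1657 genes. The median of -0.14 moved with the processing, to -0.62 with levels centred on the shared genes and to -0.44 at 100 normalised reads or more. It was -0.05 and -0.04 with pseudocounts of 0.1 and 5.

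PRX22, PRX23, PRX32, PRX33, PRX34, PRX37 and PRX38 are the Arabidopsis genes most closely related to the horseradish enzyme used as a laboratory reagent. This grouping was made after the values were seen. The 5 of these 7 with values in all 4 libraries summed to 60.0 normalised reads in wild type at day 0 and 26185 at day 4, and to 129 and 23787 in lbd16-2. They made up 8.996% of the members' reads in the wild-type leaf and 59.1% at day 4, and 29.7% and 50.5% in lbd16-2. The day 0 shares depend on PRX71, which is outside this group. PRX71 alone held 81.9% of the members' reads in the wild-type leaf and 50.2% in the lbd16-2 leaf. Shares without PRX71 were not computed, so no gain in share is read from these values. PRX33 was in the lbd16-2 list alone, and PRX34 was in no table.

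Genes known from lignin formation came next. In the stem and vessel lignin set, 3 of 7 genes were listed, beside 38 of all 60 loci. Sets this small cannot show a difference from that share. PRX71 (AT5G64120), which stiffens the wall and limits cell size, had the highest leaf level of the listed members, at 546 normalised reads for wild type and 218 for lbd16-2, a day 0 ratio of 0.399 (0.343 to 0.462). At day 4 it was at 7478 and 5190, a ratio of 0.694 (0.675 to 0.714). PRX71 was thus lower in both mutant libraries, and at day 0 it lay opposite to the offset of that library. The increase from its day 0 level was 13.7-fold (12.7 to 14.7) in wild type, against 23.8-fold (20.9 to 27.2) in lbd16-2, and the difference of log2 folds, wild type minus lbd16-2, was -0.79 (-1.01 to -0.58).

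PRX52 (AT5G05340), needed for syringyl lignin in stem fibres, was at 2.09 and 1535 normalised reads in wild type and at 3.71 and 2296 in lbd16-2, a day 4 ratio of 1.50 (1.42 to 1.58). Its deposited log2 folds of 8.96 and 8.93 were nearly equal. PRX25 (AT2G41480), another lignin gene of stems, was in the lbd16-2 list alone, at 19.5 normalised reads at day 0 and 1401 at day 4, 71.9-fold (46.9 to 116). PRX2, PRX4, PRX47 and PRX66 of this set were in no table. PRX53 (AT5G06720), a gene of vascular tissue and flowers, was at 15.3 and 1016 in wild type and at 27.8 and 1596 in lbd16-2, a day 4 ratio of 1.57 (1.47 to 1.68).

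Of the 5 peroxidases that together lignify the Casparian strip of the root endodermis, PRX3, PRX39, PRX64 and PRX72 were listed and PRX9 was not. The share over all loci was 38 of 60, and a set this small cannot show a difference from it. PRX3 (AT1G05260), also known as a gene of the cold and salt responses, was at 1.40 and 347 normalised reads in wild type and at 2.78 and 209 in lbd16-2, a day 4 ratio of 0.601 (0.522 to 0.690). PRX64 (AT5G42180) was at 0 and 18.4 in wild type and at 0 and 7.13 in lbd16-2, a ratio of 0.388 (0.178 to 0.796). PRX72 (AT5G66390) was in the wild-type list alone, at 0 and 15.6 in wild type and at 4.64 and 19.0 in lbd16-2. Its day 4 ratio of 1.22 (0.688 to 2.21) held 1, and what kept it out of the lbd16-2 list was its day 0 value of 5 reads.

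Of 8 other genes of the Casparian strip, 1 was in the tables, a share near the background of listed genes. This was MYB36, the regulator of the programme, at 0 and 12.0 normalised reads in wild type and at 0 and 8.32 in lbd16-2. The CASP genes, which mark the membrane domain of the strip, were in no table. None of the 5 xylem vessel markers was in a table either.

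Among genes known from root hair growth, PRX1, PRX62, PRX69 and PRX73 of 6 were listed, a share near the 38 of all 60 loci. PRX44 and PRX60 were not listed. PRX69 (AT5G64100) was at 2.09 and 2826 normalised reads in wild type and at 4.64 and 1602 in lbd16-2, a day 4 ratio of 0.567 (0.539 to 0.595). PRX73 (AT5G67400) was at 0 and 63.7 in wild type and at 0 and 107 in lbd16-2, a ratio of 1.68 (1.298 to 2.19). PRX62 (AT5G39580) belonged to the lbd16-2 list alone, with 4.64 normalised reads at day 0 and 230.07 at day 4. PRX1 (AT1G05240) was in the wild-type list alone, with 0 and 10 reads in wild type and 1 and 2 reads in lbd16-2, a day 4 ratio of 0.168 (0.0179 to 0.789).

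The coding sequence of PRX1 is identical to that of its neighbour PRX2, and the transcripts share a run of 1492 nucleotides, the full length of PRX2. Reads from that run cannot be told apart between PRX1 and PRX2. The annotated PRX1 transcript, of 2478 nucleotides, extends beyond it. The directions within this role set thus differed: PRX69 was lower and PRX73 was higher in the mutant library. Of 6 markers of root hair cells, 5 were in the lbd16-2 list, beside 9.18% of all genes tested, and 1 was in the wild-type list, beside 8.91%. RHD6, an early regulator, was shared at 328 and 340.1 normalised reads at day 4, while the late genes EXPA7, EXPA18, COBL9 and PRP3 were in the lbd16-2 list alone at 32.1 to 52.9, and their wild-type values were not analysed here. The summed level of the 5 in lbd16-2 was 5.57 normalised reads at day 0, all from COBL9, and 506 at day 4, of which RHD6 gave 340.1. The part of root hair cells in the peroxidase values was not tested.

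PRX33 (AT3G49110), which with PRX34 produces the oxidative burst at the cell surface in defence, was in the lbd16-2 list alone, with 1 read in the leaf and 44.6 normalised reads after culture. Its coding sequence is 90.4% identical to that of PRX34, so part of its reads may belong to PRX34. The other genes of the lbd16-2 list alone were lower than PRX25 there. PRX7 (AT1G30870) reached 246 normalised reads at day 4, PRX35 (AT3G49960) 72.5, PRX5 (AT1G14550) 35.7, PRX58 (AT5G19880) 16.1 and PRX8 (AT1G34510) 11.9. PRX5, PRX58 and PRX8 had 0 reads at day 0, so they were at least 12.8-fold, 5.77-fold and 4.27-fold higher.

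The list of genes found in lbd16-2 alone held 8 of the 38 listed members, or 21.1%, beside 21.4% of all listed genes. The list of wild type alone held 7.89% of the members, beside 18.8% of all listed genes, and the shared list 71.1% of the members, beside 59.8%. The third gene of the wild-type list alone was PRX46 (AT4G31760), at 0 and 19.8 normalised reads in wild type and at 0.928 and 13.7 in lbd16-2, a day 4 ratio of 0.690 (0.380 to 1.24). For PRX46 and PRX72 the list membership differed between genotypes while the day 4 levels did not differ beyond counting error.

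PRX39 and PRX57 are known targets of UPB1, a bHLH repressor of peroxidase genes at the border of division and elongation in the root tip. PRX57 (AT5G17820) was at 2.09 and 449 normalised reads in wild type and at 0 and 464 in lbd16-2, a day 4 ratio of 1.03 (0.929 to 1.15). UPB1 itself belonged to the lbd16-2 list alone, with 12.1 normalised reads at day 0 and 297 at day 4, and its wild-type values were not analysed here. The targets therefore differed from each other, since PRX39 was far lower in the mutant library and PRX57 was level within counting error. PRX40, the third target, was in no table.

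**Figure D3:**
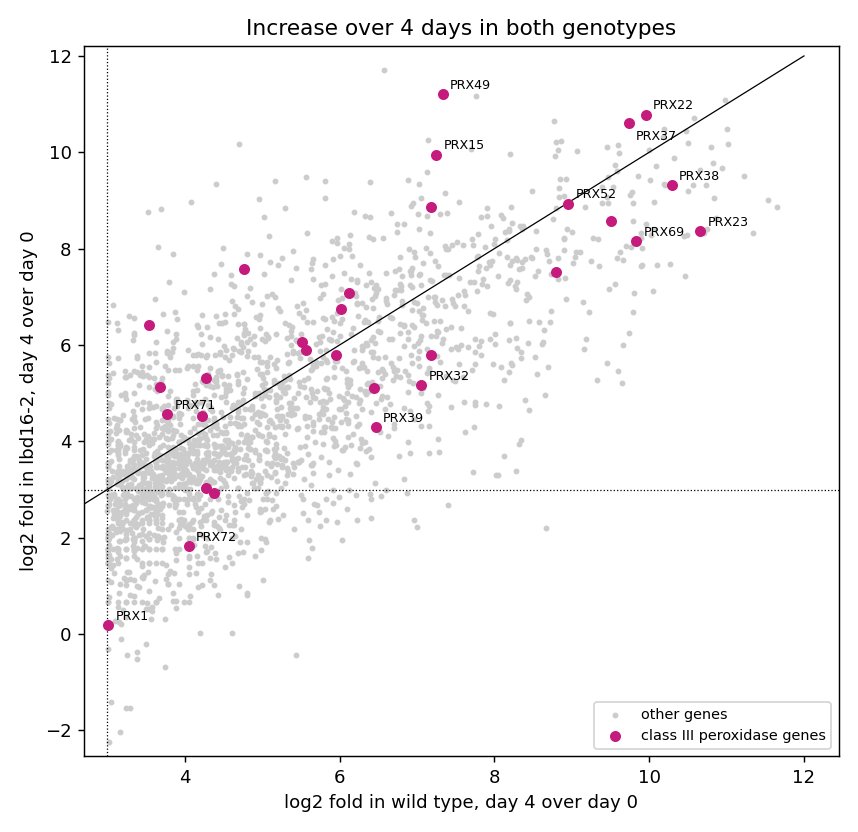
Deposited log2 fold, day 4 over day 0, in wild type (horizontal) and lbd16-2 (vertical) for the 2175 genes measured in every library, the 30 peroxidase genes among them in colour; the line marks equal folds and the dotted lines the list limit of 3. PRX49 and PRX15 lie above the line and PRX23, PRX32 and PRX39 below it, and the folds of most peroxidase genes rest on few day 0 reads.

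Many of these genes lie side by side. In the RefSeq annotation of TAIR10.1, 22 of the 60 loci formed 10 runs with no other protein-coding gene between them. In 6 runs all genes were listed, in 3 some were and in the run of PRX50 and PRX51 none was. In all, 17 of the 22 loci with a neighbouring member were listed, beside 21 of the 38 without one. Neighbours share sequence and so are not independent of each other.

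Neighbours did not always move together between the genotypes. PRX22 (AT2G38380) was at 6.98 and 7939 normalised reads in wild type and at 6.49 and 13188 in lbd16-2, a day 4 ratio of 1.66 (1.62 to 1.70). PRX23, next to it on chromosome 2 and 90.6% identical in coding sequence, had a ratio of 0.230. This pair went in opposite directions, although reads that match both genes could be given to either.

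PRX37 and PRX38 (AT4G08780) on chromosome 4, 93.8% identical, went the same way. PRX38 was at 0.698 and 2125 normalised reads in wild type and at 0.928 and 1232 in lbd16-2, a day 4 ratio of 0.580 (0.548 to 0.614), close to the 0.599 of PRX37. PRX53 and PRX54 (AT5G06730) on chromosome 5, 80.8% identical, had ratios of 1.57 and 1.01 (0.813 to 1.25). PRX54 stood at 113 and 114 normalised reads at day 4.

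The run of PRX69, PRX70 (AT5G64110) and PRX71 on chromosome 5 was lower in lbd16-2 throughout, at ratios of 0.567, 0.758 (0.580 to 0.988) and 0.694, though PRX70 reached only 86.3 and 65.4 normalised reads. Leaf levels in that run were unlike: among the members with values, PRX71 was the highest in each leaf library and PRX70 had 0 and 1 read. Next to the unlisted PRX68, PRX67 (AT5G58390) was at 5.58 and 83.5 normalised reads in wild type and at 0 and 33.9 in lbd16-2, a ratio of 0.406 (0.291 to 0.561). PRX59 (AT5G19890), beside PRX58, was at 0 and 17.7 in wild type and at 0 and 22.0 in lbd16-2, a ratio of 1.24 (0.729 to 2.16).

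**Figure D4:**
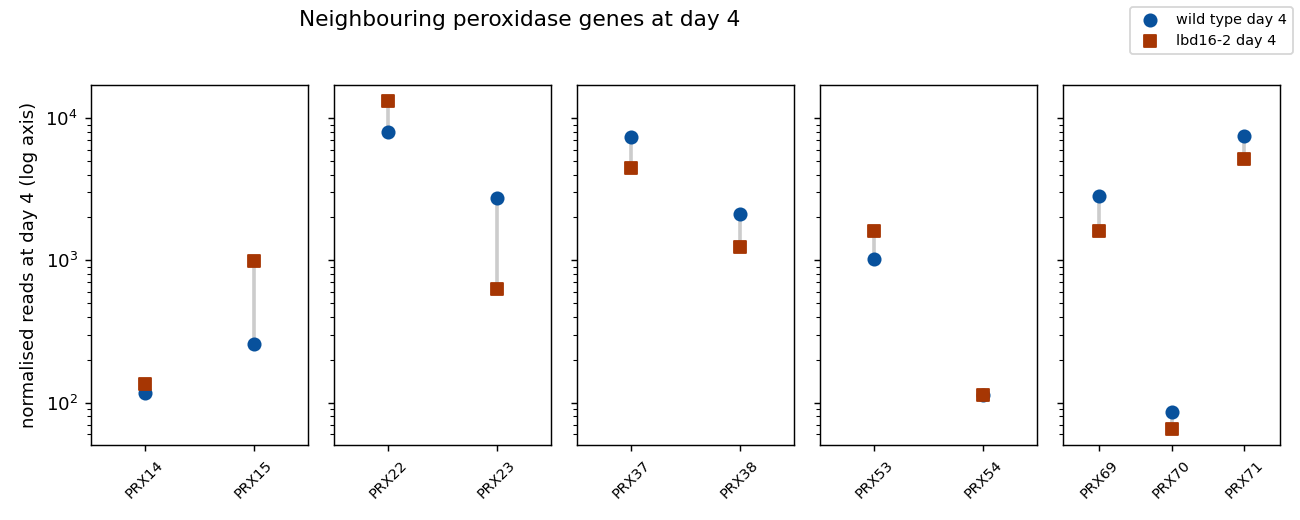
Normalised reads at day 4 (log axis) of the 11 peroxidase genes in the 5 runs of neighbours whose genes all have values in all 4 libraries, with circles for wild type and squares for lbd16-2. PRX22 and PRX23 differ between the genotypes in opposite directions, whereas PRX37 and PRX38, and the 3 genes PRX69, PRX70 and PRX71, are lower in lbd16-2; values are not divided by transcript length, so they compare genotypes within a gene.

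The gene structures were also examined, since the rule did not use them. The coding sequences of the 60 loci ran from 933 to 1119 nucleotides, and pairs of members were 43.5% to 100% identical, with a median of 52.0%. Of 41 loci with 4 coding exons 27 were listed, and of 12 with 3 coding exons 9 were, beside 38 of all 60 loci. None of the 4 loci with a single coding exon, PRX6, PRX31, PRX41 and PRX63, was listed, a set too small to compare with that share. PRX20 (AT2G35380), a gene outside these role sets, was at 5.58 and 127 normalised reads in wild type and at 2.78 and 149 in lbd16-2, a day 4 ratio of 1.18 (0.969 to 1.44).

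Other genes of the same chemistry were then counted. In monolignol synthesis, which makes the lignin precursors, 1 of 18 genes was listed: CCR2, at 391 (wild type) and 710 (lbd16-2) normalised reads at day 4, a ratio of 1.82 (1.64 to 2.01). The background is 8.91% of all genes tested for the wild-type list and 9.18% for the lbd16-2 list. Of 17 laccases, oxidases that also polymerise monolignols, 6 were in the wild-type list and 5 in the lbd16-2 list, both above that background. LAC8 was the highest of them, at 90.7 and 2572 normalised reads in wild type and at 30.6 and 1240 in lbd16-2, a day 4 ratio of 0.482 (0.457 to 0.509). LAC7 went the other way, at 70.0 and 164 at day 4, a ratio of 2.34 (1.86 to 2.98).

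Enzymes that make the substrate hydrogen peroxide or remove it came next. Of 10 NADPH oxidases, which start superoxide formation at the membrane, 3 were in the wild-type list and 2 in the lbd16-2 list, above the same background, and RBOHE, the highest of them, was at 676 and 653 normalised reads at day 4. None of the 7 superoxide dismutases and none of the 11 ascorbate peroxidases and catalases was in a table. Beside the same background of 8.91% and 9.18%, sets this small can hold no listed gene, so these counts show no difference from it.

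Extensins, the wall proteins that peroxidases cross-link, were counted in the same way. Of 18 extensin and extensin-like genes, 8 were in the wild-type list, beside 8.91% of all genes tested. In the lbd16-2 list there were 12, beside 9.18%. All 8 with values in all 4 libraries were higher in lbd16-2 at day 4, at ratios of 1.297 to 12.5, and 5 of them by 2-fold or more, beside the 11.3% of all genes. EXT3 stood at 3562 (wild type) and 4786 (lbd16-2) normalised reads at day 4, and LRX1, a root hair wall protein, was at 11.3 and 66.0. Repeats shared among these genes make the split of reads between them uncertain.

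Of 10 regulators of lignin, vessels or root hairs, 1 was in the wild-type list, beside 8.91% of all genes tested. In the lbd16-2 list there were 3, beside 9.18%. MYB63, an activator of lignin genes, stood at 256 (wild type) and 530 (lbd16-2) normalised reads at day 4, a ratio of 2.07 (1.83 to 2.34). MYB15, a regulator of lignin in defence, was in the lbd16-2 list alone at 272, as was UPB1.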

How the data were processed

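Total RNA was sequenced on Illumina HiSeq and covered 4 libraries, 1 per group. Per the submitters' processing notes, the tools were DESeq, Cufflinks, STAR, Trim Galore and FastQC, on TAIR10. Versions, strandedness and the treatment of multi-mapping reads are not stated there, so near-identical genes are uncertain. The authors deposited 4 tables of increased genes with levels and fold changes on a log2 scale. P-values and FDR values are as the authors deposited them, and the fold-change ratio the authors deposited in the shared table was not used.

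Each level equals log2 of 1 plus the reads over a library's size factor, as inferred from the values: 100% came out as whole reads within 0.001 reads. Normalised reads, ratios, exact binomial intervals (scipy 1.17.1) and medians were computed from these reads. Intervals of differences of log2 folds are normal approximations that add 0.5 reads to each library. The numbers of genes tested were recovered from FDR-to-p ratios of the listed genes with an FDR under 1. These ratios gave whole ranks for 53.1% of such genes in wild type and 54.4% in lbd16-2. The day 0 and day 4 offsets used shared genes whose mean over the wild-type and lbd16-2 libraries of that day was at least 20 normalised reads. Steps were tested on simulated reads.

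The members and the gene lists were chosen with earlier results of these data known. Named with values were the 10 highest members at day 4, the 6 largest and 6 smallest ratios among members of at least 100 normalised reads, all members of 1 list alone, the role lists and neighbours; the remaining members were added to account for all. Family numbers and roles are general knowledge; RefSeq gives 10 of the 60 loci a symbol of their own. Transcript lengths, exons, neighbours and coding-sequence identity, used in place of protein identity (biopython 1.88), come from RefSeq TAIR10.1, whose coordinates and sequences are not printed because the tables name TAIR10. All 2773 listed loci matched it. Of the wild-type list, 4 genes had no lbd16-2 values and were left out of genotype comparisons.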

Additional observations from a re-analysis of the deposited data

How the results depend on the processing

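No paired analysis was possible because each group is 1 library, and no alternative replaces a replicate. With the authors' FDR under 0.05 in place of fold alone, the members listed were 10 in wild type and 10 in lbd16-2. At a fold limit of 4, 3 members were higher and 3 lower in lbd16-2 at day 4, and among members with at least 100 normalised reads 2 were at least 2-fold lower. The median day 4 log2 difference turned to 0.0302 with at least 100 normalised reads. The summed day 4 ratio turned to 0.934 without PRX22 and 0.927 without PRX49; both were added after the values were seen. The causes were not tested, except that a stricter limit keeps fewer genes. Centring on the shared genes moved the ratio of each of 18 named members by less than its counting interval. The median difference of log2 folds, -0.14, stayed below 0 but moved by over 1.5 times, to -0.62 when centred, -0.44 at 100 normalised reads or more, and -0.05 and -0.04 with pseudocounts of 0.1 and 5. Few day 0 reads limit the folds of most members.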

Other observations

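The family holds 73 loci, and 13 of them were not among the 60 named. Of these 13, 5 were in the tables and 8 were in none. PRX21 (AT2G37130) was at 25.8 normalised reads in wild type at day 0 and 4998 at day 4, and at 31.5 and 16215 in lbd16-2, a day 4 ratio of 3.24 (3.16 to 3.33). PRX16 (AT2G18980) was at 6.98 and 6106 in wild type and at 20.4 and 4790 in lbd16-2, a ratio of 0.784 (0.761 to 0.809). PRX21 and PRX16 were thus as abundant at day 4 as the leading members of the 60, and their reads are in no sum above. PRX26 (AT2G43480) and PRX48 (AT4G33870) were lower in lbd16-2 at day 4, at ratios of 0.242 (0.189 to 0.305) and 0.413 (0.299 to 0.566). PRX17 (AT2G22420) was in the lbd16-2 list alone, at 333 normalised reads at day 0 and 3411 at day 4.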
